A study of Neurospora crassa with 6 samples.

Results

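Of the 9730 Neurospora crassa genes with an FPKM value, 22 were raised in the os2 mutant under dual stress (DS) and not in wild type (wt) under DS or heat shock (HS). FPKM is the number of sequenced fragments per kilobase of transcript, scaled for the depth of the library, a measure of transcript level corrected for length. How the deposited values were scaled between libraries is not given here. The 22 genes were chosen on the values themselves, by log2 ratios with 1 added to each FPKM: os2 DS/30 of at least 1.5, wt DS/30 below 0.5, wt HS/30 below 1, and at least 5 FPKM in os2 DS. A ratio such as os2 DS/30 is the DS library over the 30°C control of the same strain, and every log2 ratio given here is on this scale, which understates the change of genes with low FPKM. Because these limits read 5 of the 6 libraries, the 3 ratios they use describe the choice, and os2 HS is the 1 library that they did not read.

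Conidia, the asexual spores, were germinated for 5 hr at 30°C in Vogel's medium with 0.05% glucose. The controls were then kept at 30°C for 1 hr, HS cells at 45°C for 2 hr, and DS cells at 45°C for 2 hr with 2-deoxyglucose (2-DG), a glucose analog that is phosphorylated but hardly used further. The wt strain was OR74A, and os2 is the point mutant UCLA 80A in the SL4 background, a strain in which OS-2 is described as truncated and non-functional. The strains can therefore differ in more than os-2, and its part in a difference between them cannot be told apart from that of the background. Likewise, the stressed cells were collected later than the controls, so that time and stress cannot be told apart in a ratio to 30°C. Polyadenylated RNA was sequenced in 1 library for each strain and condition, 6 in all. No difference has a replicate check and no test was run. In RNA from whole cultures, fewer cells with a transcript and less transcript per cell cannot be told apart either.

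OS-2 is the MAP kinase of the osmosensing pathway in Neurospora, the counterpart of Hog1 in budding yeast, and it passes on signals of osmotic and other stresses to transcription. Filamentous fungi switch on genes for the uptake and breakdown of secondary nitrogen sources, such as nitrate, urea, purines and amino acids, when ammonium and glutamine are scarce, a response that in Neurospora depends on the GATA factor NIT2. Of the 22 genes, 5 are named in the study's transcript tables and 2 have a symbol in RefSeq, 1 gene having both. The remaining 16 are known here by their locus numbers only and no role is given for them. The named genes are a urea active transporter, a purine permease, the nitrate permease nit-10, arginase, a neutral ceramidase and nudf-1.

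The transcript of os-2 itself (NCU07024) was at 113, 65.1 and 67.1 FPKM in wt against 34.3, 37.0 and 37.5 FPKM in os2, where the 3 values of a strain are, here and throughout, those of 30°C, HS and DS in that order. The os2 libraries were all below those of wt, and a point mutation leaves a transcript that can be measured. Summed over genes, FPKM ranged from 426267 (os2 HS) to 899576 (wt DS), and the median gene above 0 was at 13.5 to 15.4 FPKM. The smallest values of the table stood in near whole-number ratios between libraries, from which 1 fragment was worth about 0.0825 to 0.151 FPKM in a gene of 1 kb. These are estimates from gene lengths with introns, and they cover counting error only.

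Under these limits the choice narrowed in steps. Of 6409 genes with at least 5 FPKM in os2 DS, 791 (12.3%) had a log2 os2 DS/30 of at least 1.5. Only 65 of them stayed below 0.5 in wt DS/30, and 43 of the 65 had a wt HS/30 of 1 or more, which left the 22. Another 50 genes were stopped by the wt DS/30 limit alone. With the strains exchanged (wt DS/30 of at least 1.5, os2 DS/30 below 0.5, os2 HS/30 below 1, and at least 5 FPKM in wt DS), 60 genes were found. That count was taken on the deposited values only and not under other scalings, so it is not compared with the 22. The number meeting the limits of the 22 depends on how the libraries are set against each other. When each library was scaled to an equal FPKM sum, these limits gave 123 genes, 16 of the 22 among them. Scaling by median ratios or upper quartiles gave 22 genes each, with 21 and 20 shared. Of the 22 genes, 14 were chosen under all 3 scalings.

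**Figure D1:**
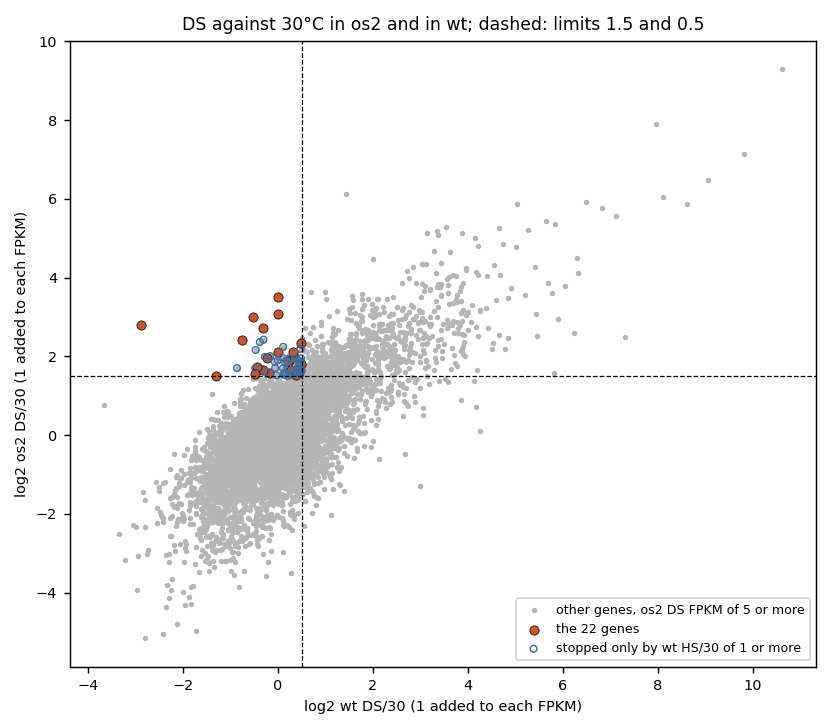
Log2 DS/30 in os2 (vertical) against wt (horizontal), with 1 added to each FPKM, for the 6409 genes with at least 5 FPKM in os2 DS (1 point a gene, 1 library a condition). Filled points are the 22 genes, open circles the 43 genes stopped by the wt HS/30 limit alone, and dashed lines the limits of 1.5 and 0.5; the filled points run from 1.505 to 3.50 on the vertical axis.

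Across the 22 genes, os2 DS/30 ran from 1.505 to 3.50 with a median of 1.92, and wt DS/30 ran from -2.89 to 0.49 with a median of 0.00. In os2 DS their FPKM ran from 5.90 (NCU07390) to 310 (NCU07959), with a median of 31.3, where all 6409 genes had a median of 25.6. The os2 DS library held the highest value of the 6 libraries for 21 of the 22 genes, against 16.1% of the 6409 genes, a share that the limits themselves favour. Among the 19 genes with at least 0.001 FPKM in os2 30, os2 DS was 1.11 to 4.03 times the highest other library, and for 8 of them it was at least 2 times as high.

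**Figure D2:**
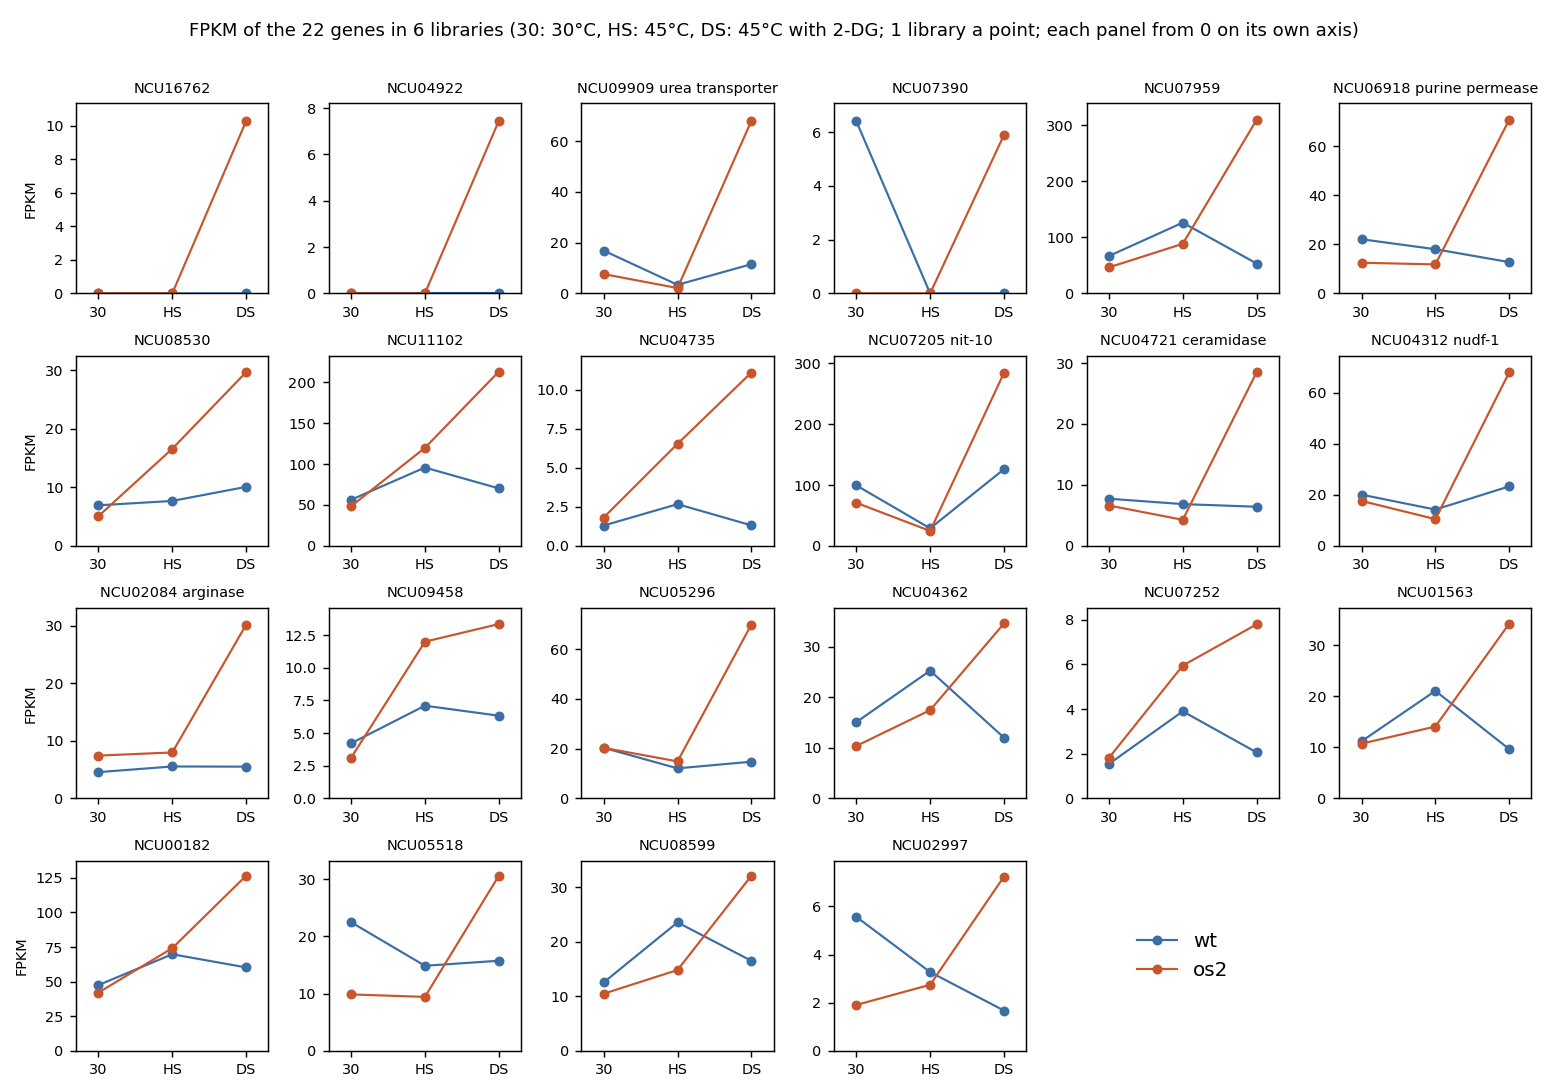
FPKM of each of the 22 genes in the 3 conditions, with wt and os2 as separate lines (1 library a point, each panel from 0 on its own axis). The panels run from the highest os2 DS/30 (3.50, NCU16762) to the lowest (1.505, NCU02997), and os2 DS is the top point in 21 of them.

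Of the named genes, 3 encode transporters of nitrogen sources. The urea active transporter NCU09909 (chromosome I, 45332 to 48154 in the RefSeq annotation of assembly NC12) imports urea. It was at 16.9, 3.38 and 11.5 FPKM in wt and at 7.61, 2.10 and 68.1 FPKM in os2. Both strains were lowest in HS, and only the os2 DS value stood above the 30°C values, at 8.94 times os2 30, 5.91 times wt DS and 4.03 times the next highest library, wt 30. As log2 ratios, os2 DS/30 was 3.003, wt DS/30 -0.51 and os2 DS/HS 4.48, the highest os2 DS/HS of the 22.

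Nit-10 (NCU07205, chromosome V, 6247448 to 6250397), the nitrate permease, was also lowest in HS in both strains, at a higher level. It was at 99.5, 28.8 and 126 FPKM in wt and at 70.8, 24.5 and 285 FPKM in os2. Its wt DS value, unlike that of the urea transporter, was above wt 30, and os2 DS was 2.26 times wt DS. The purine permease NCU06918 (chromosome VII, 764838 to 767418), which takes up purines, differed in HS. It was at 22.1, 18.0 and 12.8 FPKM in wt and at 12.5, 11.8 and 70.9 FPKM in os2, so that the 5 other libraries stayed within 22.1 FPKM and os2 DS was 3.21 times the highest of them. The urea transporter and the purine permease were the only genes of the 22 that were chosen under all 9 alternatives listed in the closing section.

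Arginase (NCU02084, chromosome I, 1396137 to 1397969) splits arginine into ornithine and urea. It was at 4.55, 5.54 and 5.50 FPKM in wt and at 7.43, 7.98 and 30.2 FPKM in os2. Neither strain moved in HS by more than 0.24 in log2, and os2 DS was 3.79 times the next highest library, os2 HS. Arginase was the named gene with the highest os2/wt ratio at 30°C (log2 0.60).

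Outside nitrogen metabolism, the neutral ceramidase NCU04721 (chromosome VI, 540021 to 543644), which cleaves ceramide into sphingosine and a fatty acid, was at 7.74, 6.85 and 6.42 FPKM in wt and at 6.62, 4.27 and 28.5 FPKM in os2. The symbol nudf-1 (NCU04312, chromosome V, 5582719 to 5584660) is shared with nudF of Aspergillus nidulans, which encodes a regulator of the dynein motor. Its FPKM was 20.1, 14.2 and 23.3 in wt and 17.6, 10.5 and 68.0 in os2. Both genes were lower in HS than at 30°C in both strains, by less than 2-fold, and only os2 DS stood apart, at 3.68 and 2.92 times the next highest library.

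The limits did not read the os2 HS library, but they did read os2 30, and a low os2 30 value, which favours the choice of a gene, also raises os2 HS/30. For 5 genes the transcript was already raised at least 2-fold in os2 HS/30 (15.3% of the 6409 genes were), 2 were lowered at least 2-fold (13.1% of the 6409), 12 stayed within 2-fold, and 3 were at or near 0 in both libraries. The median os2 HS/30 was 0.23, against -0.01 over the 6409 genes. The 5 genes were 22.7% of the 22, while 75.9% of the 791 genes raised in os2 DS were raised at least 2-fold in os2 HS, with a median of 1.52. For the 43 genes stopped by the wt HS/30 limit that share was 72.1%, and for the 50 stopped by the wt DS/30 limit it was 28.0%, with a median of 0.52. The urea transporter (-1.47) and nit-10 (-1.495) were the only 2 of the 791 genes that were at least 2-fold lower in os2 HS than in os2 30, although when each library was scaled to an equal FPKM sum they were at -0.89 and -0.74. With that scaling 10 of the same 22 genes were raised at least 2-fold in os2 HS/30, with a median of 0.86, and of the 123 genes chosen again 79 were, with a median of 1.13. With a pseudocount of 0.1 the number was 2 of 20 genes. The limit on wt HS can itself favour genes with little response to heat, so these shares are a description and were not tested. The name of a rise confined to DS does not hold for the 5 genes raised in os2 HS.

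**Figure D3:**
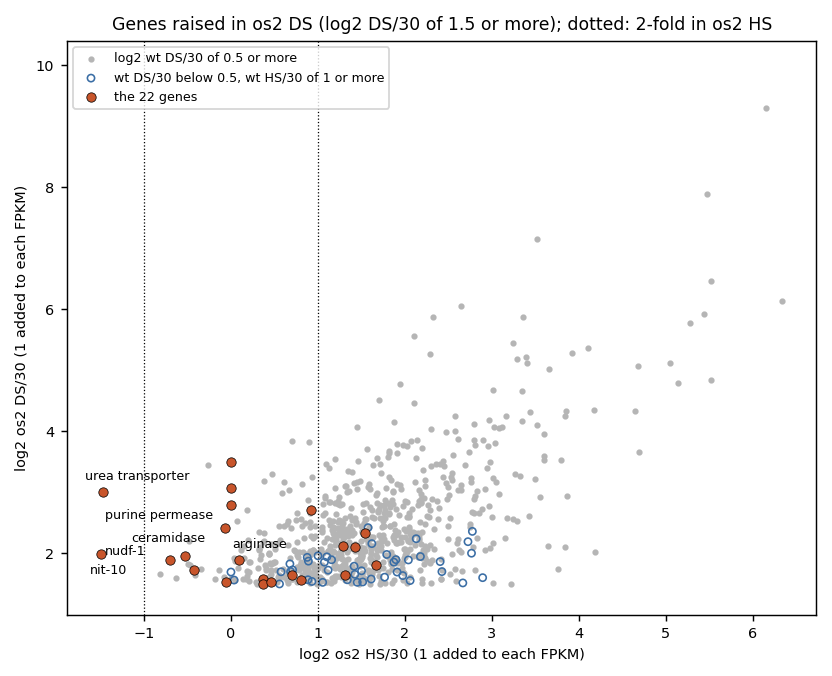
Log2 os2 DS/30 (vertical) against os2 HS/30 (horizontal), with 1 added to each FPKM, for the 791 genes raised in os2 DS (1 library a condition). Of the filled points, the 22 genes, 5 lie right of the dotted line of a 2-fold rise in HS and 2, the urea transporter and nit-10, lie left of the line of a 2-fold fall.

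The 5 genes raised in both os2 stresses were NCU09458, NCU08530, NCU04735, NCU07252 and NCU11102, with os2 HS/30 from 1.29 to 1.67. NCU08530 (chromosome III, 5032578 to 5033465) was at 6.92, 7.67 and 10.1 FPKM in wt and at 5.06, 16.6 and 29.7 FPKM in os2. NCU11102 was at 56.4, 95.8 and 70.3 FPKM in wt and at 48.4, 120 and 213 FPKM in os2. In os2 both stepped up from 30°C to HS and again to DS, while wt stayed within 2-fold of its control.

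NCU04735 was at 1.30, 2.67 and 1.31 FPKM in wt and at 1.81, 6.54 and 11.1 FPKM in os2. NCU09458 was at 4.21, 7.10 and 6.33 FPKM in wt and at 3.10, 12.003 and 13.4 FPKM in os2, and its os2 DS/HS of 0.14 was the lowest of the 22. NCU07252 was at 1.54, 3.90 and 2.06 FPKM in wt and at 1.81, 5.95 and 7.80 FPKM in os2. Without the 1 added to each FPKM, NCU04735 and NCU07252 were also more than 2-fold higher in wt HS than in wt 30. They met the wt HS/30 limit only with it. With no pseudocount the limits gave 17 genes, 15 of the 22 among them. For NCU09458 and NCU07252 most of the step lay between 30°C and HS, and adding 2-DG went with 1.11 and 1.31 times the HS level. NCU04735 rests on about 13 fragments in wt DS and about 145 in os2 DS, and NCU07252 on about 23 in os2 30 and about 92 in os2 DS.

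The genes that stayed within 2-fold in os2 HS include the highest level of the 22. NCU07959 (chromosome IV, 1219620 to 1221904) was at 66.7, 126 and 53.3 FPKM in wt and at 46.4, 88.5 and 310 FPKM in os2. Both strains were higher in HS by almost the same ratio (log2 0.91 in wt and 0.92 in os2), and then parted in DS, where wt was below its control. It overlaps its neighbour NCU07960 by 233 bases, and reads of overlapping genes cannot be assigned without strand, which the kit is not stated to keep.

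NCU00182 was at 47.5, 69.8 and 60.2 FPKM in wt and at 42.0, 74.2 and 127 FPKM in os2. NCU05296 was at 20.3, 12.04 and 14.7 FPKM in wt and at 20.3, 14.8 and 69.8 FPKM in os2, level with wt at 30°C and 4.75 times wt in DS. NCU04362, NCU01563 and NCU08599 were also higher in HS than at 30°C in both strains, by less than 2-fold, with wt HS/30 of 0.71, 0.86 and 0.86 and os2 HS/30 of 0.70, 0.36 and 0.46. In os2 DS they were at 34.6, 34.2 and 32.1 FPKM, which is 1.37, 1.63 and 1.36 times the next highest library, wt HS in each case. For these 3 genes os2 DS was thus less than 2-fold above a wt library.

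A further 3 genes were at or near 0 in os2 at 30°C, and for these a ratio depends on the 1 added to each value. NCU16762 (chromosome IV, 1544217 to 1544970, 754 bases) was at 10.3 FPKM in os2 DS, about 65 fragments, and below 0.001 FPKM in the 5 other libraries. It lies within the span of NCU06532, which was at 45.1 FPKM in os2 DS with an os2 DS/30 of 0.27. NCU04922 (chromosome IV, 742598 to 742930, 333 bases) was at 7.44 FPKM in os2 DS, about 21 fragments, and listed at 0 in the 5 others. NCU07390 (chromosome I, 6107558 to 6108341) was at 5.90 FPKM in os2 DS and 6.42 FPKM in wt 30, and listed at 0 in the other 4, so it is the 1 gene of the 22 whose highest library was not os2 DS. Of all genes, 27 were above 0 in os2 DS and listed at 0 in the 5 other libraries, and NCU04922 was the highest of them, the next being at 3.15 FPKM. Genes listed at 0 in 1 library and at 50 FPKM or more elsewhere also occurred, 3 in wt 30, 4 in os2 30, 3 in os2 HS and 2 in os2 DS, and whether a listed 0 is an estimate that failed was not tested. Without the 3 genes the median os2 DS/HS of the other 19 was 1.23.

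Between the strains, os2/wt in DS was at least 2-fold up for 19 of the 22 genes (9.07% of the 6409), with a median of 1.68 and a lowest value of 0.92. Both DS libraries were read in choosing the genes, so nothing is read from that share. In HS, of which the limits read the wt library alone, 2 genes were at least 2-fold up (15.3% of the 6409), NCU04735 (1.04) and NCU08530 (1.02), none was at least 2-fold down (14.8% of the 6409), and the median was -0.10. At 30°C the median was -0.23, none was at least 2-fold higher in os2 (0.952% of the 6409), 17 of the 22 genes were below 0, and 4 were at least 2-fold lower in os2 (1.33% of the 6409): NCU09909, NCU07390, NCU05518 and NCU02997. A low os2 30 value or a high wt 30 value favours the choice of a gene, so nothing is read from that share. NCU05518 shows it: it was at 22.5, 14.9 and 15.7 FPKM in wt and at 9.85, 9.42 and 30.6 FPKM in os2, where os2 DS was 3.10 times os2 30 but 1.36 times wt 30. NCU02997 was at 5.57, 3.27 and 1.67 FPKM in wt and at 1.91, 2.74 and 7.25 FPKM in os2. It overlaps NCU02998 by 1098 of its 1525 bases.

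Within os2, DS/HS sets the 2 stressed libraries side by side and was at least 2-fold up for 15 of the 22 genes (9.03% of the 6409), with a median of 1.70 and all 22 above 0, so that none was 2-fold down (4.73% of the 6409). The choice asked for high os2 DS values, which favours this ratio. The share was 38.1% for the 791 genes raised in os2 DS and 16.3% for the 43 stopped by the wt HS/30 limit. It was 70% (35 genes) for the 50 stopped by the wt DS/30 limit, near the 68.2% for the 22. In wt, HS/30 was at least 2-fold down for 3 of the 22 (27.3% of the 6409), NCU09909, NCU07205 and NCU07390, and DS/30 for 2 (11.8% of the 6409), NCU07390 and NCU02997. The limits removed high values of these wt ratios, so the counts are given as a description.

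In the study's tables, 4 of the 22 genes stand among 29 genes of nitrogen metabolism, 1 (the ceramidase) among 14 genes of lipids in the table of raised transcripts, and none among the 16 genes of lipids in the table of lowered ones. None stands among 11 raised genes of autophagy and vacuoles or is the 1 autophagy gene of the lowered table. Those genes were selected on these libraries, so the counts are not independent evidence. Of the 29, 10 were at least 2-fold up in os2 DS/30 (21.2% of the 6409 were) and 10 at least 2-fold down (16.4%), with a median of -0.063. In os2 HS/30, 4 were up (15.3% of the 6409) and 15 down (13.1%), with a median of -1.16. The list lay in both directions in os2 DS. It joins 9 genes of the study's raised table and 20 of its lowered table. Both directions thus follow in part from how the list was built, and nothing is read from these shares. Spermidine synthase (NCU06727), among the lower ones, was at 429 FPKM in os2 30 and 71.4 in os2 DS.

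**Figure D4:**
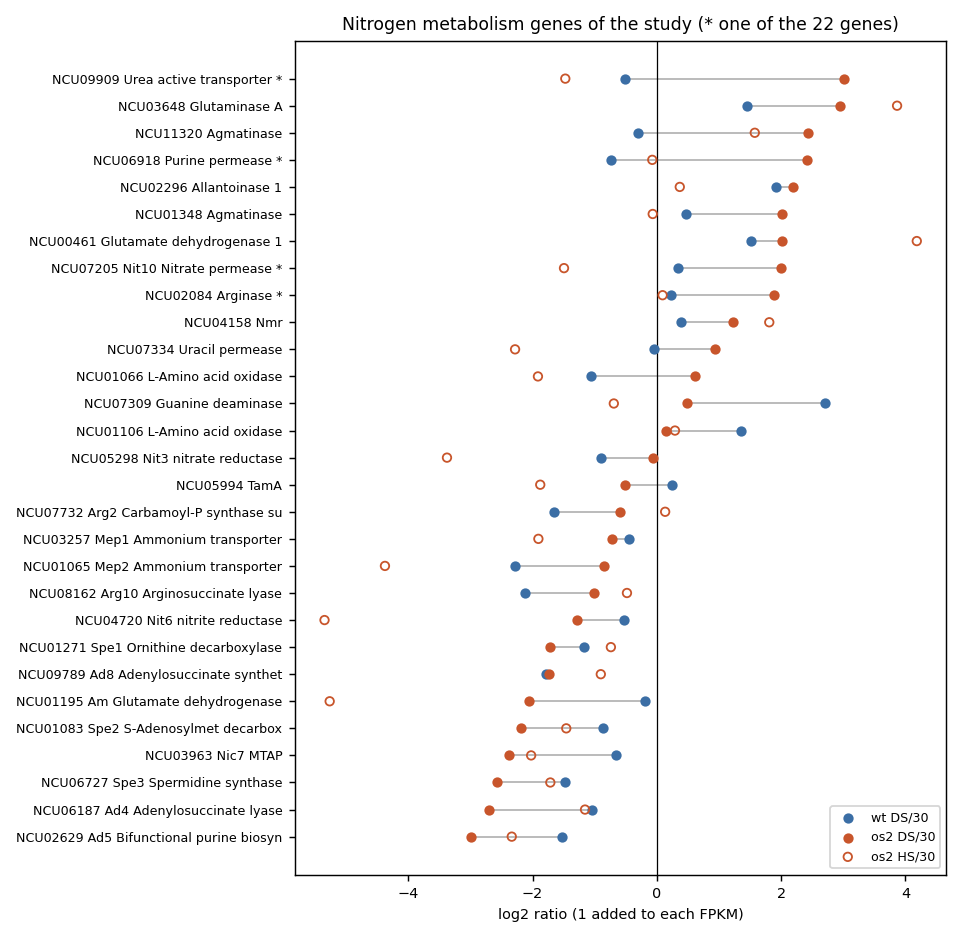
Log2 DS/30 in wt and os2 and log2 HS/30 in os2, with 1 added to each FPKM, for the 29 nitrogen metabolism genes of the study's tables (1 library a condition, ordered by os2 DS/30). The 4 starred genes are among the 22; their os2 DS/30 lies between 1.89 and 3.003 and their wt DS/30 between -0.75 and 0.34.

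Of the 29, 8 passed the os2 limits and 4 of these were stopped by wt. Glutaminase A (NCU03648), glutamate dehydrogenase 1 (NCU00461) and allantoinase 1 (NCU02296), which act on glutamine, glutamate and allantoin, were up in wt DS as well, with wt DS/30 of 1.46, 1.51 and 1.92. The agmatinase NCU11320, which releases urea from agmatine, was close to the 22. It was at 8.82, 20.1 and 6.94 FPKM in wt and at 6.65, 21.8 and 40.0 FPKM in os2, and was stopped by its wt HS/30 of 1.11. The agmatinase NCU01348 had an os2 DS/30 of 2.02 but only 3.63 FPKM in os2 DS.

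Among the 5 measured genes with a nit symbol, nit-10 was the only one at least 2-fold higher in os2 DS than in os2 30. Nit-3 (NCU05298), nitrate reductase, was at 137, 17.1 and 73.1 FPKM in wt and at 84.4, 7.21 and 80.7 FPKM in os2. Nit-6 (NCU04720), nitrite reductase, was at 140, 3.81 and 97.2 FPKM in wt and at 108, 1.68 and 43.9 FPKM in os2. Permease and both reductases, which act in sequence on nitrate, were thus lowest in HS in both strains, and in os2 DS the permease stood at 4.02 times its 30°C level while nit-3 was back near its own (-0.063) and nit-6 below it (-1.28). The regulators nit-2 (NCU09068) and nit-4 (NCU08294) had os2 DS/30 of -0.85 and 0.05.

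All 11 genes of autophagy and vacuoles were at least 2-fold up in os2 DS/30 (21.2% of the 6409), with a median of 2.35, but 7 were so in wt DS/30 (16.6%) and 9 in wt HS/30 (24.5%), and none met the limits. The 11 come from the study's table of raised transcripts, selected on these libraries, so nothing is read from these shares. Atg1 (NCU00188), the kinase that starts autophagy, was at 12.8, 59.3 and 29.6 FPKM in wt and at 14.7, 37.9 and 93.0 FPKM in os2. The vacuolar protein NCU09195 (Gpr6) came nearer, with wt DS/30 of -0.41 and wt HS/30 of 0.79, and was stopped by its os2 DS/30 of 1.16. The alternative oxidase aod-3 (NCU04874) had the os2 limits met, at 2.03 FPKM in os2 30 and 36.9 in os2 DS. It was past both wt limits, with wt DS/30 of 0.71 and wt HS/30 of 2.05. Of 98 symbol families with at least 3 measured genes, 1 held any of the 22, the nit family with nit-10. No gene with an arg, con, ccg, nuo, crp, hsp, atg, vma, mus, cys, met, aod, nde, chs or cat symbol was among them, although 8 of 10 hsp genes, for heat shock proteins, passed the os2 limits. Only 2 of the 22 genes have a RefSeq symbol at all, and 957 of the 6409 do. Arginase, 1 of the 22, has none. Nothing is therefore read from these absences or from the count of families.

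By position, 6 of the 22 genes lie on chromosome IV and 5 on chromosome I, which hold 14.9% and 25.8% of the 6409 genes, and no 2 of them are next to each other. Of 30 neighbouring genes with at least 5 FPKM in os2 DS, 9 (30.0%) were at least 2-fold up in os2 DS/30, against 20.7% among the neighbours of all 6409 genes. The ceramidase NCU04721 lies 875 bases from nit-6, and NCU05296 lies 1528 bases from nit-3, adjacencies that were noticed after the values were seen. In os2 HS/30, nit-6 and nit-3 were at -5.35 and -3.38, where NCU04721 and NCU05296 were at -0.53 and -0.43. In all, 5 of the 22 genes overlap a neighbour. The share of all genes that do so is not given here, so nothing is read from this count.

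Several genes lie close to a limit, where a small shift would change the choice. At the os2 DS/30 limit of 1.5, NCU02997 (1.505) and NCU08599 (1.530) were just inside and NCU05102 (1.496) and pan-3 (NCU07836, 1.468) just outside. At the wt DS/30 limit of 0.5, NCU09458 (0.492) and NCU08530 (0.483) were inside and NCU06546 (0.510) and NCU00860 (0.540) outside. At the wt HS/30 limit of 1, NCU07252 (0.948) and NCU07959 (0.911) were inside and NCU07584 (1.023) and NCU03172 (1.032) outside. At 5 FPKM in os2 DS, NCU07390 (5.90 FPKM) and NCU02997 (7.25 FPKM) were inside and NCU09351 (4.86 FPKM) and NCU10449 (4.85 FPKM) outside.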

How the data were processed

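RNA from wt and os2 was measured in 6 libraries, 1 per strain and condition, grouped as the labels give them. The authors purified polyadenylated RNA with the TruSeq kit, sequenced paired ends, demultiplexed with CASAVA 1.8.2, checked quality with FastQC, aligned reads with TopHat to the 74a_12 genome and the Broad Institute transcriptome, and deposited FPKM values from Cufflinks, in 1 table of 9730 genes. 1 row without an identifier was left out, and 0 per-sample columns were left unmapped. Versions other than that of CASAVA are not given in the sources used here.

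From the deposited FPKM, log2 ratios were computed after adding 1 to each value. The genes, the limits and the lists were chosen with earlier results of these data known. Counts over the 22 genes are given beside the percentage of all genes with at least 5 FPKM in os2 DS that were past the same 2-fold change. With 1 library for each strain and condition, the strain-specific response that defines the genes has no replicate error, so no test was run and no replicate could be left out. The value of 1 fragment came from low FPKM times gene length, within 0.1 in log2 of whole-number ratios. Named genes were those with a name, the 10 highest os2 DS/30, the 5 highest in os2 DS, the extremes of wt DS/30 and os2 HS/30, the 2 genes on each side of each limit, neighbouring genes of the 22 that are next to each other, os-2, and the nitrogen and autophagy genes of the study's tables; the other genes of the 22, the nit genes, aod-3 and the neighbours were named after their values were seen. A RefSeq table of assembly NC12, taken to be the same assembly, matched 9729 identifiers and gave symbols for 1118. Promoter and protein sequences were not used here, so motifs and protein similarity were not examined. The work was done under Python 3.11.15 with matplotlib 3.10.9, pandas 2.3.3 and numpy 2.4.6 and were tested on simulated data. The alternatives were 3 scalings, pseudocounts of 0.1 and 0, FPKM limits of 10 and 0, an os2 DS/30 limit of 2 and a wt HS/30 limit of 0.5. The study's own ratios and p-values from Cuffdiff were not used.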

Additional observations from a re-analysis of the deposited data

Results flagged for a closer look

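For 2 of the 22 genes the strains moved at least 2-fold in opposite directions in DS/30, and the difference was not tested because each value is 1 library. NCU02997 had a log2 ratio of 1.505 in os2 and -1.30 in wt, with 7.25 FPKM in os2 DS against 1.67 in wt DS, and rests on about 17 fragments in wt DS and 26 in os2 30. NCU07390 was at 6.42 FPKM in wt 30 and listed at 0 in wt DS, and listed at 0 in os2 30 and at 5.90 FPKM in os2 DS, about 40 and 39 fragments. Wt DS, wt 30, os2 30 and os2 DS were all read in choosing these genes. The share of all genes that moved in this way is not given here, so nothing is read from the count.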

How the results depend on the processing

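No paired analysis was possible because each strain and condition has 1 library. The genes were chosen again under each alternative. Scaling columns to the same total moved log2 ratios, before 1 was added, by 0.59 for os2 DS/30, -0.32 for wt DS/30 and 0.41 for wt HS/30. With 1 added, the shift depended on the FPKM of the gene. Under this scaling 123 genes met the limits, 79 of them raised in os2 HS/30, 5 lowered in wt HS/30 and 7 lowered in wt DS/30. Their median os2 HS/30 was 1.13, os2 DS/HS 0.58 and os2/wt in HS 0.36, the last reversed in sign from -0.10. Keeping the same 22 genes under that scaling, an alternative chosen after seeing the data, 10 were raised in os2 HS/30, with medians of 0.86 for os2 HS/30 and 2.51 for os2/wt in DS. An os2 DS/30 limit of 2 left 9 genes, 3 of them raised in os2 HS/30 and 1 lowered in wt DS/30, with medians of 2.49 for os2 DS/HS and 2.47 for os2/wt in DS. A wt HS/30 limit of 0.5 left 13 genes, 1 of them raised in os2 HS/30, with a median os2 HS/30 of -0.0593, reversed in sign, and os2 DS/HS of 2.49. The number raised in os2 HS/30 was 2 with a pseudocount of 0.1, 2 without one and 9 without an FPKM limit. The number lowered in wt DS/30 was 1 by median ratios, 1 without a pseudocount, 0 with an FPKM limit of 10, and 1 among the 19 genes of at least 0.001 FPKM in os2 30, a choice also made after seeing the data. Where the genes were chosen again, other or fewer genes entered, and the cause of the remaining shifts was not tested. The other 72 values did not reverse and moved by at most 1.5 times, where medians were compared as unlogged ratios. Among them, the median log2 os2 HS/30 was 0.04 by median ratios and 2.2e-05 with a pseudocount of 0.1. Of the values above 0, depth limits those of few fragments, such as about 13 for NCU04735 and 17 for NCU02997 in wt DS and 21 for NCU04922 in os2 DS.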
